A study of Arabidopsis thaliana with 30 samples.

Results

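Peak lists of 2 acetylated forms of histone H4, H4K5ac and H4K8ac, were compared in wild-type (WT) Arabidopsis seedlings. The material was whole 14-day-old seedlings, and each mark had 2 immunoprecipitated samples, numbered bio1 and bio2 in their titles. These 4 lists are 4 of the 30 samples of a series on BRM, the ATPase of a SWI/SNF chromatin remodelling complex, and on its bromodomain subunits BRD1, BRD2 and BRD13. The 4 lists of the same marks in the brd1/2/13 triple mutant, and the lists of BRM-GFP, BRD1-GFP, BRD2-GFP and BRD13-GFP, were read beside them. The GFP lists are of tagged proteins, and no genotype is labelled for BRM-GFP. No label says whether bio1 and bio2 came from separate cultures, so p-values reflect the spread of these samples alone, and that spread may be technical. A region of a mark was a stretch of merged peaks on chromosomes 1 to 5 that held a peak of both replicates. By this rule there were 18558 H4K5ac regions and 17582 H4K8ac regions, and merging all 4 lists gave 23132 regions.

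Acetylation of the lysines in the N-terminal tail of histone H4 removes their positive charge and is found near the starts of active genes. Histone acetyltransferases add the group, deacetylases remove it, and bromodomains bind it. In plants the MYST family enzymes HAM1 and HAM2 are known to acetylate lysine 5 of H4. A whole-seedling list averages over many cell types, so fewer cells with a mark and less of the mark per cell cannot be told apart.

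The places of the 2 lysines are shown first in HIS4 (AT2G28740), a histone H4 gene, since both marks are named for them. Its coding start lies at chr2:12329904-12329954 on the minus strand (TAIR10), and the capitals mark the codons of lysine 5 and lysine 8 of the mature protein, which lacks the initial methionine. Only 2 residues lie between them on the tail.
HIS4 coding start: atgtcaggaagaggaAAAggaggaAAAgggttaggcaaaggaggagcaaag
HIS4 itself carried both marks. Its fold enrichment at the summit, the ratio over background that the peak caller gave, was 4.62 and 3.63 in the H4K5ac lists, against 3.02 and 2.66 in the H4K8ac lists, so its relative height in the 2 marks was that of the median region (centred log2 difference -0.03, limma adjusted p = 0.89).

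The other stretches, 4 in number, show what the comparison of the marks turns on, namely where the 2 summits fall in 1 gene. Each runs 5′ to 3′ along the gene, reaches 40 bases past the summits, is wholly coding, and has 9 capitals at the mean summit of each mark. NFU5 (AT1G51390, chr1:19050440-19050612, plus strand) had the strongest relative H4K5ac signal inside a gene, with the H4K5ac summit 182 bp and the H4K8ac summit 274 bp from the gene start. RAV2 (AT1G68840, chr1:25880590-25880805, plus strand) had the strongest relative H4K8ac signal, with the summits at 610 bp for H4K5ac and 475 bp for H4K8ac. In ABCB21 (AT3G62150, chr3:23013349-23013571, minus strand), which also had relatively more H4K8ac, the H4K5ac summit was at 499 bp and the H4K8ac summit at 641 bp. AT5G65950 (chr5:26380413-26380507, plus strand), named for a subunit of a vesicle tethering complex, was strong in both marks, with summits at 330 bp and 344 bp for H4K5ac and H4K8ac. The upstream block of capitals is H4K5ac in all but RAV2, where it is H4K8ac.
NFU5: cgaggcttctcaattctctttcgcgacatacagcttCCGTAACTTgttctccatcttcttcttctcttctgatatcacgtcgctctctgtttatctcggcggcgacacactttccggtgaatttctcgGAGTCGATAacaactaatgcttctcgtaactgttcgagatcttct
RAV2: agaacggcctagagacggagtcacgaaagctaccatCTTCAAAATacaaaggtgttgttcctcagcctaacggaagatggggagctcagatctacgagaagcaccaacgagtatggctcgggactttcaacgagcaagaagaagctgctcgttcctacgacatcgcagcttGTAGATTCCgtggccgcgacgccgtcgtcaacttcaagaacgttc
ABCB21: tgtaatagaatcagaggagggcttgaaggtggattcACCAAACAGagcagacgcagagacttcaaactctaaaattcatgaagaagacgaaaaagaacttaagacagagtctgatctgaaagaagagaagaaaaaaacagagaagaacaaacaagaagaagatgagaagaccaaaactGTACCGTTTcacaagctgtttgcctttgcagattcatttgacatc
AT5G65950: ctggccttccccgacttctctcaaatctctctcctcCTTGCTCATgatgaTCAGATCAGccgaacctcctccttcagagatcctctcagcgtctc

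The lists were close in size but not in height. H4K5ac had 20031 and 19982 peaks, and H4K8ac had 19667 and 19801. The median fold enrichment of a peak was 3.97 and 3.99 in H4K5ac, against 2.86 and 2.83 in H4K8ac, and the highest was 12 and 12.4 against 8.45 and 8.29. H4K5ac values were also more spread, with an SD of log2 fold enrichment of 0.638 and 0.637, against 0.464 and 0.466 for H4K8ac. The background coverage solved from the lists was 24.2 and 26.8 reads in H4K5ac and 29.4 and 29.0 reads in H4K8ac. Thus H4K8ac had the lower peaks on the slightly deeper background, and the part of antibody yield and depth in this was not tested. Over genes that mark the tissue, all 9 housekeeping genes matched, of 12 listed, had regions of both marks. Of 17 photosynthesis genes, 9 had both and 7 had neither (52.9% and 41.2%). Of 13 seed maturation genes 3 had both and 10 had neither, and of 7 pollen genes 2 had both and 4 had neither. Over all genes 63.6% had both and 22.7% had neither. The 17 photosynthesis genes listed had both marks less often than this, but they are too few to speak for photosynthesis genes in general.

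Most of the 2 marks' regions coincided. Of the 23132 merged regions, 15969 (69.0%) had a peak in all 4 lists, 1146 (4.95%) in both H4K5ac lists only and 694 (3.0%) in both H4K8ac lists only. With any 1 list left out, single-mark regions numbered 1757 to 1935 for H4K5ac and 918 to 1738 for H4K8ac. The order of the counts was the other way with 9833 peaks in each list (754 for H4K5ac and 846 for H4K8ac) and with an overlap of at least 50% (1615 and 1702). Seen from each mark, 16177 H4K5ac regions (87.2%) and 16439 H4K8ac regions (93.5%) overlapped a region of the other mark. The Jaccard index of covered bases, the shared part of the joint length, was 0.792 between the H4K5ac replicates, 0.724 between the H4K8ac replicates and 0.610 to 0.613 between the marks. The lists of 1 mark thus resembled each other more than those of the other mark, by 0.146. An exact permutation test over the 3 ways to split 4 lists gave p = 0.333 (two-sided), which is the smallest p this design allows for any value per list. Counted by peaks, the gap between the marks was clear for H4K5ac and small for H4K8ac. Of the H4K5ac peaks, 6.35% and 6.22% met no peak of the other replicate and 13.2% to 13.6% met no H4K8ac peak. Of the H4K8ac peaks, 8.98% and 9.61% met no peak of the other replicate and 10.3% to 10.8% met no H4K5ac peak.

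The regions of a single mark were weak and narrow, and they lay at different places for the 2 marks. H4K5ac-only regions had a median width of 487 bp and median fold enrichments of 2.18 and 2.16, and H4K8ac-only regions had 619 bp, 1.87 and 1.88. Regions with both marks had median widths of 809 bp in H4K5ac and 892 bp in H4K8ac. A summit within 500 bp of the start of a protein-coding gene was counted at the gene start, and failing that one within 500 bp of its end at the gene end. The mean summit of an H4K5ac-only region was at a gene start in 55.8% of cases, in a gene interior in 13.2%, at a gene end in 16.6% and in intergenic sequence in 8.64%. For H4K8ac-only regions the same places took 16.0%, 37.6%, 17.3% and 27.1%. Among regions with both marks, 75.5% of the H4K5ac and 70.0% of the H4K8ac summits were at gene starts. H4K5ac-only regions thus kept the usual place of the mark more often than H4K8ac-only regions, which were mostly inside or between genes.

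**Figure D1:**
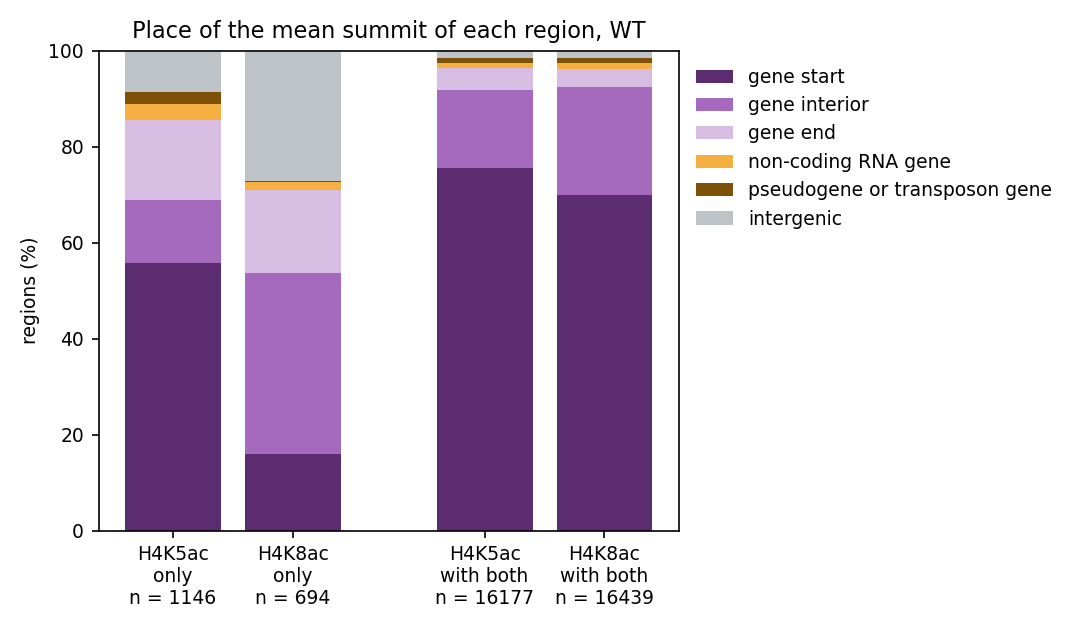
Share of regions (%) by the place of the mean summit, for H4K5ac-only and H4K8ac-only regions and for regions of each mark that also have the other mark. The gene start share is 55.8% of 1146 H4K5ac-only regions and 16.0% of 694 H4K8ac-only regions, and the intergenic share is 8.64% and 27.1%.

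Regions of a single mark also differed in which chromatin proteins were found there. BRM-GFP regions overlapped 27% of H4K5ac-only and 50.3% of H4K8ac-only regions, against 67.8% and 67.5% of H4K5ac and H4K8ac regions with both marks. BRM-GFP or a tagged BRD protein overlapped 42.5% of H4K5ac-only and 68.0% of H4K8ac-only regions, against 83.2% and 82.7% of H4K5ac and H4K8ac regions with both marks. So H4K8ac-only regions met these proteins more often than H4K5ac-only regions did. They were also wider (median 619 against 487 bp), and the part of width in this was not tested. In the brd1/2/13 lists, which the choice of regions did not use, 850 H4K5ac-only regions (74.2%) again had H4K5ac peaks in both lists, and 442 (38.6%) had them with no H4K8ac peak in either. For H4K8ac-only regions these counts were 371 (53.5%) and 209 (30.1%). Over all H4K5ac regions the 2 shares were 96.5% and 4.43%, and over all H4K8ac regions 93.2% and 1.62%. Single-mark regions thus kept their own mark less often than regions in general. A switch to the other mark alone was seen at 4 H4K5ac-only and 11 H4K8ac-only regions, against 36 of all H4K5ac and 173 of all H4K8ac regions.

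The strongest examples of single-mark regions were chosen after their values were seen. Among H4K5ac-only regions, one of 480 bp inside AT3G11860, named for a sterile alpha motif, had fold enrichments of 5.20 and 5.07, and its gene start lay 548 bp upstream of the summit. GSTU15, a glutathione S-transferase, had 4.37 and 4.46, and PUP11, a purine permease, had 4.76 and 3.63, both near the gene start. NHX3, a sodium/proton exchanger, had 3.87 and 3.42 at 162 bp. These H4K5ac-only regions held peaks of H4K5ac in both brd1/2/13 lists, and those of GSTU15 and PUP11 held H4K8ac in both lists there, that of NHX3 in 1 and that of AT3G11860 in none. Among H4K8ac-only regions, one in MYB51, a factor of indole glucosinolate synthesis, had 2.46 and 2.86 at 603 bp. A region of 859 bp between genes, with its summit at -2463 bp from the start of CYP51G1, a sterol demethylase, had 2.56 and 2.50. A region of 1103 bp at a non-coding RNA gene, at -2047 bp from the start of DOF1, had 2.79 and 2.80. In brd1/2/13, H4K5ac peaks were found in both lists at the regions of MYB51 and DOF1 and in neither at that of CYP51G1. These examples are a selection: other strong H4K5ac-only regions lay away from gene starts, such as those at -1213 bp from UGT74F1 and beyond the end of chr31.

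At the level of genes the marks were also largely shared. Of 27770 nuclear protein-coding and miRNA genes, 17656 (63.6%) had regions of both marks in the gene or the 1 kb upstream, 872 (3.14%) had H4K5ac only, 270 (0.972%) had H4K8ac only and 6303 (22.7%) had neither. The other 2669 genes had a mark in part of the lists. Genes with both marks were longest, with a median length of 2371 bp and 5 exons. H4K5ac-only genes had 1788.5 bp and 3 exons, H4K8ac-only genes 1443.5 bp and 2 exons, and genes with neither mark 1329 bp and 3 exons. The share of genes with both marks was 31.4% below 1 kb and 88.6% above 6 kb. By this rule a longer gene has a larger window for a region to fall in, and the part of this in the length differences was not tested. Taken per list, genes with a peak had median lengths of 2305 and 2308 bp for H4K5ac and 2324 and 2321.5 bp for H4K8ac, a difference of -16.25 bp.

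Some genes of a single mark, the smaller part of them, had it from a region of both marks. In the 10 best ranked genes of each kind a strong region of both marks stood beside the gene and reached it in the peaks of 1 mark. The rank was by score, which favours strong regions, so these 10 do not stand for the rest. ATSDI1, a factor of the sulfur deficiency response, was H4K5ac-only through a region of folds 10.08 and 9.50 whose summit lay 2981 bp from the start of a gene of 2417 bp. NF-YB6, a seed transcription factor, was H4K8ac-only through a region of folds 5.34 and 5.64 whose summit lay at -1559 bp from its start. GAPA-2, a photosynthetic glyceraldehyde-3-phosphate dehydrogenase, was H4K8ac-only in the same way, with a summit at -1549 bp. When such genes were set aside, 696 of the 872 H4K5ac-only genes (79.8%) and 166 of the 270 H4K8ac-only genes (61.5%) had nothing but single-mark regions. Their median lengths were 1895.5 and 1554.5 bp for H4K5ac and H4K8ac.

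Non-coding genes were marked unevenly. H4K5ac regions touched 43 of 625 tRNA genes, against 17 for H4K8ac, and 27 tRNA genes had H4K5ac without H4K8ac while 1 had the reverse. Of 326 miRNA genes, 72 had H4K5ac and 54 had H4K8ac. For snoRNA genes, which guide the modification of ribosomal RNA, the counts were 207 and 206 of 287. Pseudogenes not annotated as transcribed were rarely marked, with 156 for H4K5ac and 121 for H4K8ac of 3917. Transcribed pseudogenes had 184 and 135 of 926, and long non-coding RNA genes had 1064 and 943 of 3480. For annotated antisense RNA genes the order was the other way, with 45 for H4K5ac and 48 for H4K8ac of 79. Protein-coding genes also had more H4K5ac, at 66.6% for H4K5ac and 61.0% for H4K8ac, so a higher H4K5ac count was the general order. A region at such a gene may belong to a neighbour.

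Within genes that carried both marks, the H4K5ac peak lay closer to the gene start. Over 15107 genes with a summit in all 4 lists, the median summit was 318 and 316 bp from the start for H4K5ac, against 367 and 366 bp for H4K8ac, a difference of -49.5 bp (exact permutation p = 0.333). Gene by gene the median shift was -35 bp, which was less than the median gap between replicates of H4K5ac (37 bp) or H4K8ac (50 bp) in 1 gene. Both H4K5ac summits were upstream of both H4K8ac summits in 5912 genes (39.1%) and downstream of both in 1182 (7.82%). The upstream edge of the peak was at 44 and 42 bp for H4K5ac, against 113 and 112 bp for H4K8ac. The downstream edge was at 795 and 795 bp for H4K5ac, against 930 and 942 bp for H4K8ac. Both edges of H4K5ac thus lay upstream of those of H4K8ac, and the downstream edge differed more.

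**Figure D2:**
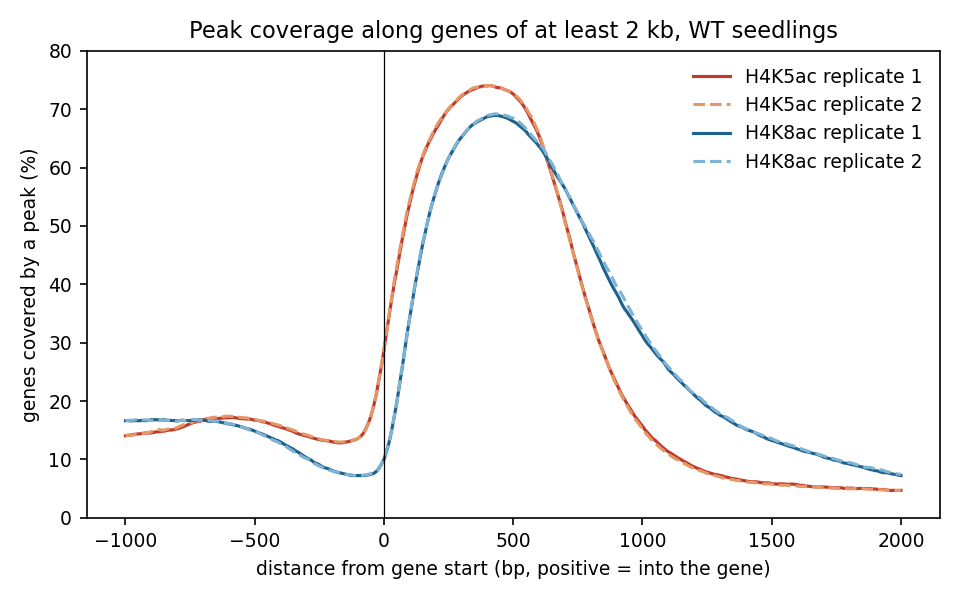
Share of 14444 genes of at least 2 kb (%) covered by a peak at each distance from the gene start (bp), for each of the 4 WT lists. Coverage is highest at 410 bp in both H4K5ac lists (74.0%) and at 440 and 430 bp in the H4K8ac lists (68.9% and 69.2%), and the H4K8ac curves stay higher beyond 700 bp.

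Along genes of at least 2 kb, the coverage by peaks showed the same order. At the gene start itself, H4K5ac peaks covered 28.7% and 28.9% of genes and H4K8ac peaks 10.01% and 10.17%. At 300 bp the shares were 72.2% and 72.4% for H4K5ac, against 65.2% and 65.3% for H4K8ac. At 1000 bp they were 15.7% and 15.2% for H4K5ac, against 31.2% and 32.0% for H4K8ac. The curves crossed between 500 bp, where H4K5ac covered 72.6% and 72.6% and H4K8ac 67.9% and 68.5%, and 700 bp, where H4K5ac covered 50.9% and 50.8% and H4K8ac 56.4% and 56.4%. The shift grew with gene length. Its median was -10 bp in genes below 1 kb, -29.5 bp from 1 to 2 kb, -41 bp from 3 to 4 kb and -43.75 bp above 6 kb. In single-exon genes it was -20.5 bp (n = 2086), and in genes with more exons -37.5 bp (n = 13021). The brd1/2/13 lists gave -34.5 bp over 15125 genes.

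The test of single genes (limma on summit positions, Benjamini-Hochberg over all 15107 genes) passed for few. The H4K5ac summit was upstream in 130 genes (0.861%) and downstream in 53 (0.351%), and the median size of the shift among these 183 was 961 bp. The upstream count was 74 or 67 without H4K5ac replicate 1 or 2, and 321 or 305 without H4K8ac replicate 1 or 2, when the downstream count was 124 or 92. Of the 183, 118 had several peaks in a list. HAF2, a histone acetyltransferase of the TAFII250 family, had its H4K5ac summits at 2557 and 2511 bp and its H4K8ac summits at 8362 and 8315 bp, near the end of the gene of 8593 bp (limma adjusted p = 6.94e-05). AT1G56500, a haloacid dehalogenase-like hydrolase, had H4K5ac at 236 and 314 bp and H4K8ac at 6967 and 6845 bp. AT1G48120, AT1G03290 and NRPD2B, a nuclear RNA polymerase subunit, had the same arrangement, with H4K5ac summits between 126 and 286 bp and H4K8ac summits between 5427 and 6085 bp. In each of these genes the H4K8ac maximum was near the gene end, and another gene lay within 1 kb. The opposite order was found in AT5G49110, named for a Fanconi anemia group I protein, with H4K5ac at 5668 and 5671 bp and H4K8ac at 312 and 217 bp. ABCG22, an ABC transporter, had H4K5ac at 4954 and 4906 bp and H4K8ac at 440 and 583 bp. AT4G38780, AT5G13560 and AT5G10800 were the other genes of this order with the largest shifts, from 5232.5 to 5493 bp. Where genes were limited to those with 1 peak in every list, 34 upstream and 10 downstream calls were left, and with no other gene within 1 kb 8 and 6. None of the 10 named genes was among the genes tested in either setting.

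H4K5ac peaks were slightly narrower at the level of lists. The median width was 704 and 704 bp for H4K5ac, against 727 and 726 bp for H4K8ac, a difference of -22.5 bp (exact permutation p = 0.333), or -103.5 bp with 9833 peaks in each list. The widest peaks separated more, with a 90th percentile of 1247 and 1254 bp for H4K5ac, against 1388 and 1391 bp for H4K8ac. All H4K5ac peaks together covered 15.5 and 15.5 Mb and all H4K8ac peaks 16.2 and 16.4 Mb. H4K8ac thus covered more sequence in slightly fewer peaks. Gene by gene, limma on log2 width called the H4K5ac peak wider in 290 genes (1.92%) and narrower in 302 (2%). No gene was called once the replicate number was a block, nor without any of the 4 lists, while 1230 wider and 1867 narrower genes had an unadjusted limma p under 0.05 with the block. The best peaks of genes with both marks had a median width of 756 bp in both H4K5ac lists, against a mean of 802 bp over the 2 H4K8ac lists, a difference of -46 bp (exact permutation p = 0.333).

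The heights of the marks at the same place were compared for the 15969 regions with a peak in all 4 lists. Each list was centred on its median, so that a difference is relative to the median region, where H4K5ac stood 0.55 higher than H4K8ac on the log2 scale before centring. By limma (Benjamini-Hochberg adjusted p under 0.05), 2233 regions (14%) were relatively higher in H4K5ac and 3390 (21.2%) in H4K8ac. Without centring these counts were 11961 and 322, and with quantile normalization 1829 and 2100. Without H4K5ac replicate 1 or 2 the H4K5ac count was 1162 or 1043. Across regions the log2 fold enrichment correlated with r = 0.945 between the H4K5ac replicates, 0.891 between the H4K8ac replicates and 0.732 to 0.745 between the marks. Regions are not independent replicates, and r is given as a description. The marks thus ranked the regions alike in broad terms, and less alike than replicates of 1 mark did.

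**Figure D3:**
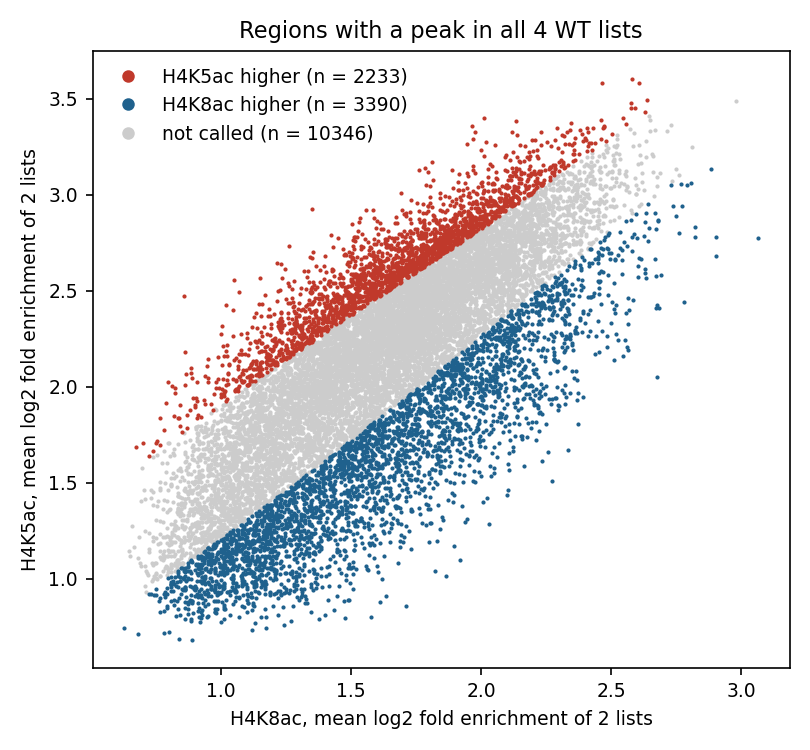
Mean log2 fold enrichment of the 2 H4K5ac lists (vertical axis) against that of the 2 H4K8ac lists (horizontal axis) for 15969 regions, each point a region, coloured by the limma call after median centring. The 2233 regions relatively higher in H4K5ac form the upper edge of the cloud and the 3390 relatively higher in H4K8ac the lower edge.

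The 2 sets of regions differed in place and gene structure. Regions relatively higher in H4K5ac had a median summit 278 bp from the gene start and 87.1% lay within 500 bp of it, against 489 bp and 46.5% for those relatively higher in H4K8ac. Over all shared regions 72.5% lay within 500 bp. Their nearest genes had a median of 6 exons for H4K5ac and 3 for H4K8ac, and 8.42% and 25.5% of them had a single exon. The median GC content of 300 bases round the summit was 41% for H4K5ac and 44.7% for H4K8ac. BRM-GFP regions were found at 54.9% of the regions higher in H4K5ac and 86.5% of those higher in H4K8ac, against 68.2% of all shared regions. With quantile normalization these BRM-GFP shares were 53.0% and 94.0%. The 2 sets also differed in H4K5ac height, with median folds of 6.19 in H4K5ac and 3.16 in H4K8ac for the first set, and 2.95 and 2.99 for the second. With quantile normalization the sets had 5.57 in H4K5ac and 2.75 in H4K8ac for the first set, and 3.59 and 3.72 for the second. Since the sets were chosen on this difference, these heights are a description.

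Binned by position, the relative call turned over at about 400 bp. Of 997 regions with the summit in the first 200 bp of the gene, 26.0% were relatively higher in H4K5ac and 6.82% in H4K8ac. From 200 to 400 bp the shares were 17.5% for H4K5ac and 10.6% for H4K8ac (n = 8369), and from 400 to 600 bp 7.40% and 32.3% (n = 3110). Of 1411 regions at 600 to 1000 bp, 3.76% were relatively higher in H4K5ac and 49% in H4K8ac. By exons, the shares were 10.07% for H4K5ac and 28.3% for H4K8ac in single-exon genes (n = 1371 regions), against 19.2% and 7.17% in genes of more than 10 exons (n = 2286). Under quantile normalization the single-exon shares were 8.02% for H4K5ac and 17.9% for H4K8ac, and those of more than 10 exons 15.5% and 5.16%. The order of the marks was therefore the same with both ways of scaling in these bins. Without centring nearly all regions, 90.8%, had the higher fold in H4K5ac.

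In the brd1/2/13 lists, which share no sample with the WT lists, the differences mostly kept their sign. Of the 2233 regions relatively higher in H4K5ac in WT, 2211 had a peak in all 4 mutant lists. The difference was positive at 1952 of these (88.3%), and limma called 763 in the same and 9 in the opposite direction. Of the 3390 regions relatively higher in H4K8ac, 3059 could be read in the mutant, 2891 of them (94.5%) had a negative difference, and 1994 were called in the same and 11 in the opposite direction. Of 9903 regions not called in WT, 5476 (55.3%) had a positive difference in the mutant. Limma called 852 of the 9903 relatively higher in H4K5ac there and 804 in H4K8ac. Over all 15173 regions read in the mutant, the calls were 1626 for H4K5ac and 2807 for H4K8ac. The H4K8ac side was thus called again more often than the H4K5ac side, but it also had more calls in the mutant in general.

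The 10 regions with the largest relative H4K5ac excess included those of 2 mitochondrial proteins. NFU5, a scaffold protein for iron-sulfur cluster assembly in mitochondria, had folds of 7.32 and 7.90 in H4K5ac, against 2.67 and 2.43 in H4K8ac (centred log2 difference 1.02, SE 0.12, limma adjusted p = 6.56e-13). MGE1, a mitochondrial GrpE co-chaperone, had 5.52 and 5.76 in H4K5ac, against 1.92 and 2.29 in H4K8ac (0.87, SE 0.14). The groups did not overlap in either gene, but the regions were chosen for the size of this difference. MGE1 was not called with all 8 acetylation lists in the fit (0.33, limma adjusted p = 0.29), and its difference in brd1/2/13 was -0.21. SAC9, a phosphoinositide phosphatase, had 6.03 and 6.44 in H4K5ac, against 2.50 and 2.21 in H4K8ac. AT5G17600, a RING/U-box protein, was the highest of the 10, with 10.2 and 10.4 in H4K5ac, against 3.79 and 4.02 in H4K8ac, at a summit 1148.75 bp into a single-exon gene. AT3G04480, an endoribonuclease by name, had 5.20 and 5.90 in H4K5ac, against 1.65 and 2.00 in H4K8ac, but the summit lay at -940.5 bp from its start. The other 5 were AT3G62280, a GDSL-like lipase, AT2G25100, a ribonuclease H-like protein, AT3G02900, AT5G20450 and AT2G43930, a protein kinase, with centred log2 differences from 0.85 to 0.95. In each of the 10 genes both H4K5ac values were more than 2 times both H4K8ac values, which describes the choice. Without centring 90.8% of all shared regions had the higher fold in H4K5ac. In brd1/2/13 the difference was positive at the other 9, and limma did not call AT3G04480 (adjusted p = 0.075) or AT2G43930 (adjusted p = 0.065) there.

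The 10 regions with the largest relative H4K8ac excess included those of transcription factors and of hormone signalling and transport proteins. RAV2, a transcription factor that represses flowering, had folds of 2.03 and 2.00 in H4K5ac, against 3.71 and 3.58 in H4K8ac (centred log2 difference -1.41, SE 0.15, limma adjusted p = 1.51e-16). HB6, a homeodomain-leucine zipper factor of the abscisic acid response, had 1.91 and 1.72 in H4K5ac, against 3.25 and 3.29 in H4K8ac. MYB15, a factor of cold and defence responses, had 2.25 and 2.03 in H4K5ac, against 3.61 and 3.96 in H4K8ac. In these factors the deposited folds themselves were higher in H4K8ac, against the general order of the marks. ABI1, a protein phosphatase that inhibits abscisic acid signalling, had 1.88 and 2.26 in H4K5ac, against 3.91 and 3.19 in H4K8ac. ABCB21, an auxin transporter, had 2.76 and 2.94 in H4K5ac, against 4.93 and 4.73 in H4K8ac. AT5G51190, an Integrase-type DNA-binding protein by its annotation, had 2.04 and 2.47 in H4K5ac, against 3.84 and 3.59 in H4K8ac. Neither these nor the other members of the 10 had overlapping values between the marks, and they too were chosen for the size of the difference. LAF3, a phytochrome A signalling protein, and HSL1, a B3 repressor of seed genes, had their regions 3800.75 and 5556.25 bp into the gene, near its end. TPS8, of the trehalose-6-phosphate synthase family, had its region at 778 bp and EXL2, an EXORDIUM-like protein, at -317 bp. Without centring all 10 still had the higher H4K8ac fold, by -0.73 to -0.86 on the log2 scale, and each passed the limma test. HB6 and TPS8 lacked a peak in at least 1 of the brd1/2/13 lists, and at the other 8 the difference was negative in the mutant too.

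**Figure D4:**
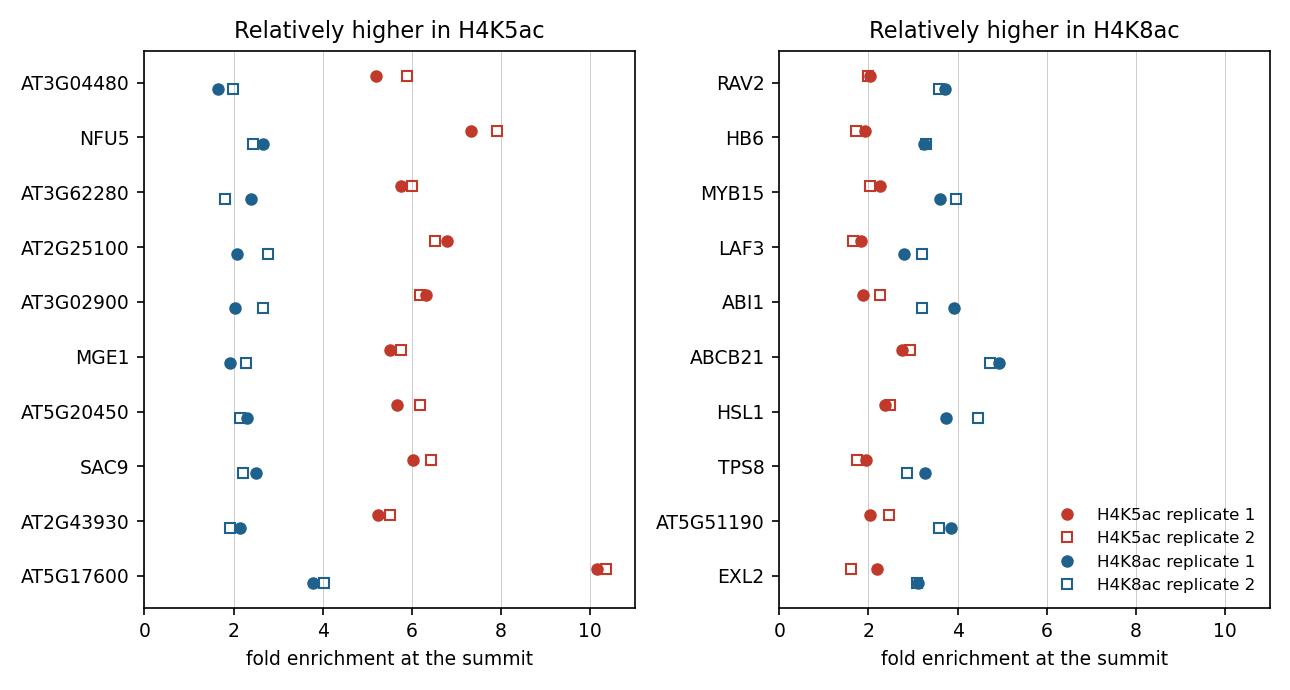
Fold enrichment at the summit in each of the 4 WT lists for the 10 regions with the largest relative excess of H4K5ac (left) and of H4K8ac (right), named by the nearest gene. H4K5ac values are 5.20 to 10.4 on the left, where H4K8ac values are 1.65 to 4.02. The marks do not overlap in any of the 20 regions, which were chosen for the size of this difference.

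Transcription factors of stress and defence leaned to H4K8ac as groups, as did some lists of other kinds. In the following counts a gene is represented by the shared region whose summit it holds, or that lies within 1 kb upstream, and over all 14988 such genes 2132 were relatively higher in H4K5ac and 3006 in H4K8ac (14.2% and 20.1%). Of 37 WRKY factors, 0 were relatively higher in H4K5ac and 21 in H4K8ac by limma (0 and 16 with quantile normalization, 10 and 6 without centring), with a median centred log2 difference of -0.46, against 0.00 for all genes. WRKY57 had 3.18 and 3.18 in H4K5ac, against 3.06 and 3.59 in H4K8ac, and WRKY15 had 3.14 and 2.84, against 3.48 and 3.21. Of 32 ERF and DREB factors, 1 and 23 were relatively higher in H4K5ac and H4K8ac (2 and 13 with quantile normalization, 9 and 4 without centring). ERF3, a transcriptional repressor, had 3.57 and 4.25 in H4K5ac, against 4.67 and 4.83 in H4K8ac. DREB2B, a drought response factor, was the 1 exception, with 3.85 and 4.13 in H4K5ac, against 2.13 and 1.83 in H4K8ac. Of 24 R2R3 MYB factors with a shared region, 0 and 13 were called (0 and 6 with quantile normalization, 10 and 3 without centring), and of 10 heat shock factors 0 and 5 (0 and 2, and 5 and 0 without centring). NAC factors were more even, with 4 and 11 of 32 (3 and 5 with quantile normalization, 15 and 1 without centring). So the H4K8ac lean of these families is one relative to the median region, and without centring it was lost for most of their members. Nor was it particular to them. The calls were 0 and 4 of 7 photosynthesis genes, 0 and 3 of 8 housekeeping genes, 0 and 5 of 10 Aux/IAA genes and 7 and 23 of 83 cytochrome P450 genes. With quantile normalization these were 0 and 1, 0 and 3, 1 and 2, and 8 and 10. Lists with more H4K5ac calls are given below.

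Hormone signalling genes were counted in the same way. Of 7 gibberellin genes with a shared region, 0 were relatively higher in H4K5ac and 4 in H4K8ac, and these were the receptors GID1A and GID1B and the DELLA repressors GAI and RGL1. GAI had 3.79 and 3.85 in H4K5ac, against 4.57 and 4.24 in H4K8ac (centred log2 difference -0.76). RGL1 had 5.0 and 4.11 in H4K5ac, against 5.09 and 4.65 in H4K8ac, so its lists overlapped before centring. Of 10 abscisic acid genes, 0 and 5 were called, among them ABI1 and the receptors PYL1, PYL4 and PYR1. PYL4 had 2.81 and 2.65 in H4K5ac, against 3.63 and 3.77 in H4K8ac (-1.0). Of 6 auxin genes, 0 and 4 were called, namely the efflux carrier PIN3, the receptors TIR1 and AFB2 and the repressor IAA2. AFB2 had 2.35 and 2.54 in H4K5ac, against 3.0 and 2.93 in H4K8ac (-0.83). The counts were the same with quantile normalization for the gibberellin and auxin genes and 0 and 4 for the abscisic acid genes. Without centring the calls were 3 and 0 for gibberellin, 5 and 3 for abscisic acid and 2 and 0 for auxin, so that the direction of the counts was kept in none of the 3 lists. The median uncentred log2 differences were -0.05, 0.19 and -0.15 in that order.

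Receptors at the cell surface and in the cytosol followed the factors. Of 215 receptor-like kinases, 14 were relatively higher in H4K5ac and 77 in H4K8ac (12 and 53 with quantile normalization, 125 and 7 without centring). BRI1, the brassinosteroid receptor, and FER, a receptor of cell wall and growth signals, were among the largest, chosen after their values were seen. BRI1 had 2.84 and 2.95 in H4K5ac, against 4.27 and 3.95 in H4K8ac, and FER had 3.62 and 4.06, against 4.96 and 4.79. Of 108 NLR immune receptors, 3 and 34 were relatively higher in H4K5ac and H4K8ac (4 and 21 with quantile normalization, 63 and 2 without centring). RPS2, a resistance protein against Pseudomonas picked in the same way, had 4.22 and 4.07 in H4K5ac, against 4.38 and 4.94 in H4K8ac. Of 36 UDP-glycosyltransferases, which attach sugars to small molecules, 1 and 16 were called (0 and 7 with quantile normalization, 17 and 0 without centring).

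**Figure D5:**
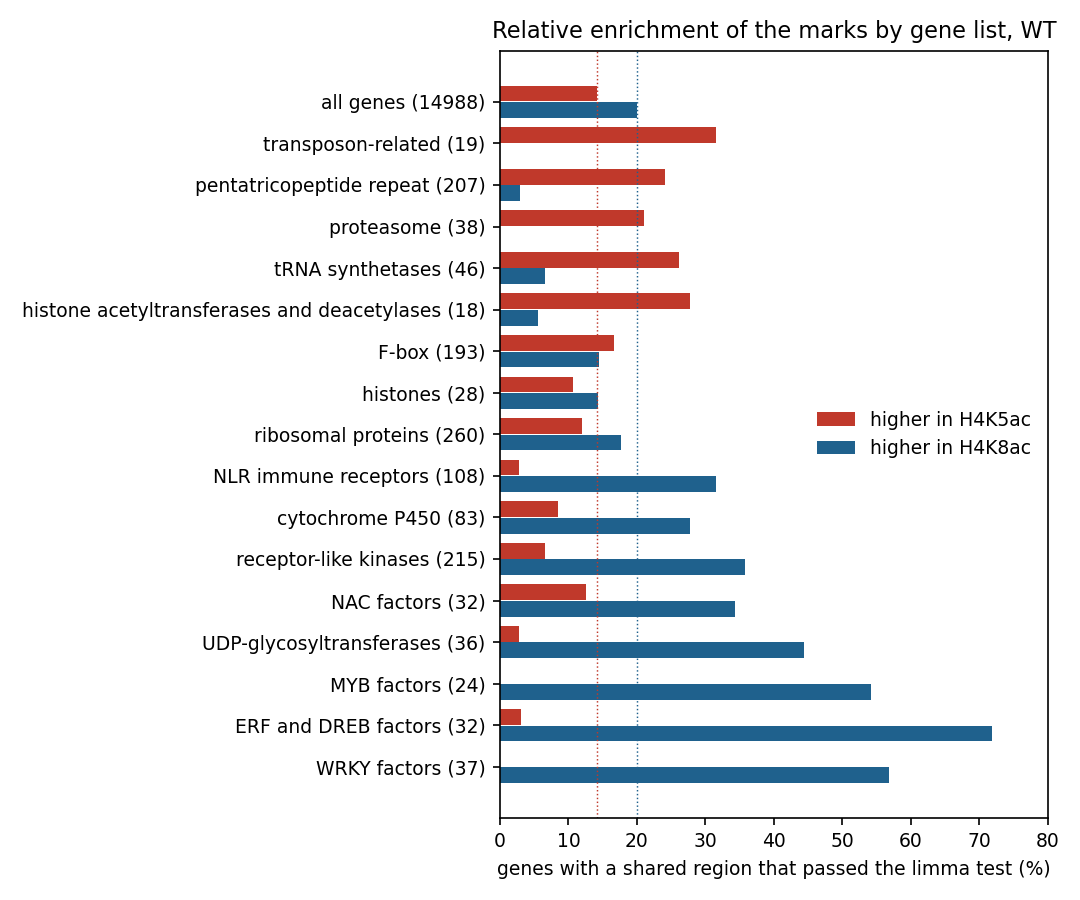
Share of the genes with a shared region (%) that passed the limma test in each direction after median centring, for 16 gene lists and all genes, with the number of genes in brackets and dotted lines at the shares of all genes (14.2% for H4K5ac and 20.1% for H4K8ac). The H4K8ac share is 71.9% in ERF and DREB factors and 2.90% in pentatricopeptide repeat genes, and without centring H4K5ac has the higher count in every list shown.

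In some other lists the calls were more often in H4K5ac. Of 207 pentatricopeptide repeat genes, which process organelle RNA, 50 were relatively higher in H4K5ac and 6 in H4K8ac (39 and 1 with quantile normalization, 193 and 0 without centring). AT5G08510 of this family, picked after its values were seen, had 8.73 and 8.76 in H4K5ac, against 3.84 and 2.99 in H4K8ac. Of 46 genes named for tRNA synthetases, 12 and 3 were called (7 and 4 with quantile normalization), and of 38 proteasome genes 8 and 0 (5 and 1). Under quantile normalization 1724 of all 14988 genes were relatively higher in H4K5ac and 1915 in H4K8ac, so the proteasome count was then close to the general share for H4K5ac. Among the proteasome genes, RPT5B, an ATPase of the regulatory particle, had 5.19 and 5.07 in H4K5ac, against 2.58 and 2.62 in H4K8ac, and PAE2, a subunit of the core, had 5.4 and 5.18, against 2.73 and 2.35. Of 19 genes named for transposon proteins, 6 and 0 were called (7 and 0 with quantile normalization). Ribosomal protein genes, cytosolic and organellar together, stood near the share of all genes with 31 and 46 of 260, as did F-box genes with 32 and 28 of 193 and histone genes with 3 and 4 of 28.

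The genes that write, erase and read acetylation were counted as well. All 19 histone acetyltransferase and deacetylase genes had regions of both marks, against 63.6% of all genes. So did the 9 SWI/SNF subunit genes that were matched, but 19 were listed and the rest were not read. Of 18 acetyltransferase and deacetylase genes with a shared region, 5 were relatively higher in H4K5ac and 1 in H4K8ac. These are 27.8% and 5.56%, against 14.2% and 20.1% of all genes, and the counts were the same under quantile normalization. Without centring they were 17 and 0. HAM1 had 8.53 and 7.77 in H4K5ac, against 3.68 and 4.69 in H4K8ac. HAC1, of the CBP family, had 8.34 and 7.52 in H4K5ac, against 4.07 and 3.94 in H4K8ac. HDA9, a deacetylase, had 6.19 and 7.77 in H4K5ac, against 3.14 and 3.96 in H4K8ac. The single gene on the H4K8ac side was HAF2, with 2.22 and 2.22 in H4K5ac, against 2.6 and 2.63 in H4K8ac. Of 8 SWI/SNF genes with a shared region, 2 were relatively higher in H4K5ac and 0 in H4K8ac. With quantile normalization the counts were 1 and 0, and without centring 8 and 0. So few genes cannot be told from the shares of all genes, 14.2% and 20.1%. The 2 called were SWI3A, with 6.07 and 6.22 in H4K5ac, against 3.43 and 3.23 in H4K8ac, and ARP7, with 7.38 and 7.23, against 3.29 and 3.91.

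Several regulators carried a single mark by the gene rule, which counts any region in the gene or the 1 kb upstream. By this rule 176 of the 872 H4K5ac-only and 104 of the 270 H4K8ac-only genes did not have only single-mark regions. Which of the regulators below were among them is not given here. H4K5ac without H4K8ac was found at GA3OX1, a gibberellin synthesis enzyme, MP, an auxin response factor, ELF4, a clock gene, MAF4, a flowering repressor, SPL15, a factor of phase change, and ERF53 and RAP2.11. H4K8ac without H4K5ac was found at the abscisic acid receptor gene PYL2, the auxin efflux carrier gene PIN4, the cold response factor gene DREB1A and 7 of 115 MYB factor genes, among them MYB51, MYB47, MYB21 and MYB102. The share of H4K8ac-only genes in the MYB family was 6.09%, against 0.972% of all genes. Defensin-like peptide genes, which encode small secreted proteins, had neither mark in 84 of 107 cases, H4K5ac only in 9 and H4K8ac only in 1, against 22.7%, 3.14% and 0.972% of all genes.

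The regions highest in both marks were at AT5G65950, AT3G09180 and 3 F-box genes. AT5G65950 had folds of 11.4 and 10.98 in H4K5ac, against 7.99 and 7.79 in H4K8ac (centred log2 difference -0.05). AT3G09180, named for a subunit of the Mediator complex, had 10.6 and 10.001 in H4K5ac, against 6.79 and 6.47 in H4K8ac. AT1G25150 had 10.07 and 10.04 in H4K5ac, against 6.23 and 6.33 in H4K8ac. The F-box genes AT1G25150, AT1G25211 and AT1G24881 lie close together and share sequence round their summits, so reads may be split between them and their values are uncertain. In 4 of these 5 regions the centred difference did not pass the test, and in AT1G25211 it was 0.30 (limma adjusted p = 0.0064).

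Promoter sequence differed between the 2 sets of genes. From 250 bases before to 50 bases after the gene start (RefSeq, TAIR10.1, both strands), the site II motif TGGGCC was present in 24.3% of 2127 genes with a region relatively higher in H4K5ac and 11.7% of 3000 relatively higher in H4K8ac, against 21.9% of 9836 genes with a shared region that was not called and 15.5% of all 27444 protein-coding genes. The TATA box letters TATAAA were in 46.2% for H4K5ac and 56.4% for H4K8ac, against 50.9% of the uncalled genes. The telobox AAACCCTA was in 6.49% for H4K5ac and 3.53% for H4K8ac, against 6.0% of the uncalled genes. The GAGA repeat GAGAGA was in 29.6% for H4K5ac and 25.9% for H4K8ac, against 27.9% of the uncalled genes. The G-box CACGTG, the GCC box GCCGCC and the W-box core TTGACC differed by less, for example 8.6% for H4K5ac and 8.53% for H4K8ac with CACGTG. Such matches describe letters in this window. Median promoter GC was 33.0% for H4K5ac and 30.7% for H4K8ac.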

How the data were processed

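The deposited lists give each peak a position, a summit, a score, a fold ratio, a −log10 p-value and a −log10 q-value from the authors' peak caller. Bowtie, MACS2 2.1.1, deepTools and the build TAIR10 are named in the submitters' processing notes. Read filters and the use of inputs are not given in the sources used here. The 10 inputs were not used, and with 1 labelled input per mark and genotype both replicates may share a control. The antibody fields of the acetylation samples name GFP, so groups followed the titles, which name the marks. In these 4 lists the score was 10 times the deposited −log10 q and every q was under 0.05, a threshold set by the authors. Each sample has its own list. The lists hold no read totals, so depth was solved from each peak's fold and p-value, and pileups came out whole within 0.02 for 100% of the solved peaks. Folds are the authors' ratios at the summit, never counts.

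Regions were merged peaks with a peak of both replicates, and an overlap of 1 bp was shared. Genes came from the TAIR10.1 RefSeq annotation, whose chromosomes hold every peak. For the 20 regions and 10 summit shifts named, the largest differences among those past the test were taken. Single-mark and two-mark genes were ranked by the worse of their deposited score ranks, and list members were taken in list order, unless stated otherwise. Log2 folds (best peak per region), summit positions and log2 widths (best peak per gene) were fitted with limma 3.58.1 (robust, trended for folds) in R 4.3.3, with Benjamini-Hochberg adjustment over all regions or genes and a threshold of 0.05. Values per list were compared by exact permutation. Python 3.11.15, numpy 2.4.6, pandas 2.3.3, scipy 1.17.1 and matplotlib 3.10.9 were used, and the fits were tested on simulated data. Replicate numbers did not pair the samples, with correlations of deviations of -3.3e-05 for folds and 0.00063 for summits, so the fits had no block. Alternatives were other scalings, a stricter q, other overlaps, equal numbers of peaks, a replicate block, other gene rules, all 8 acetylation lists, and each list left out. Of the symbols listed, 15 were not matched. Members, lists and tests were chosen with earlier results of these data known. The pentatricopeptide and histone lists were narrowed after they were seen to match other words, and lists by product name rest on the name alone.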

Additional observations from a re-analysis of the deposited data

Results flagged for a closer look

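Among the 18 named shared regions that could be read in both genotypes, 2 had a difference between the marks that itself differed between WT and brd1/2/13. This was tested with an interaction term in limma over 15173 regions, of which 145 (0.956%) passed the Benjamini-Hochberg threshold, 71 with the larger H4K5ac minus H4K8ac difference in WT and 74 with the smaller. At MGE1 the brd1/2/13 folds were 4.77 and 3.61 in H4K5ac and 2.97 and 3.25 in H4K8ac, against WT folds of 5.52 and 5.76 in H4K5ac and 1.92 and 2.29 in H4K8ac. The centred log2 difference between the marks was -0.21 in brd1/2/13 and 0.87 in WT, and WT minus brd1/2/13 was 1.07 (SE 0.20, adjusted p = 0.00043). At NFU5 the brd1/2/13 folds were 7.93 and 7.29 in H4K5ac and 3.59 and 4.03 in H4K8ac, against WT folds of 7.32 and 7.90 in H4K5ac and 2.67 and 2.43 in H4K8ac. Its centred log2 difference was 0.38 in brd1/2/13 and 1.02 in WT, and WT minus brd1/2/13 was 0.64 (SE 0.17, adjusted p = 0.033). Both regions were named for the size of their difference in WT, so a smaller value in other lists is partly built into the choice. The other 16 did not pass this test.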

How the results depend on the processing

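Counts of single-mark regions moved both with the thresholds and with the lists used. With a −log10 q of at least 5, H4K8ac-only regions numbered 297, and with an overlap of at least 50% they numbered 1702, against 694. H4K5ac-only regions numbered 1325 and 1615 in these settings, against 1146. With 9833 peaks per list, both-mark regions numbered 7252 for H4K5ac and 7340 for H4K8ac, and H4K5ac-only regions 754 and H4K8ac-only regions 846, where fewer peaks leave fewer regions with both marks. H4K5ac-only regions were thus the fewer in the last 2 settings. Without 1 list, H4K5ac-only regions numbered 1757 to 1935 and H4K8ac-only regions 918 to 1738. Calls of relative height numbered 11961 for H4K5ac and 322 for H4K8ac without centring, and 2100 for H4K8ac with quantile normalization, which shared 1529 of its 1829 H4K5ac calls and 2024 of its 2100 H4K8ac calls with the centred fit. Without 1 list they numbered 1043 to 1761 for H4K5ac and 2494 to 2747 for H4K8ac, and 1162 without H4K5ac replicate 1 or 1043 without replicate 2 were over 1.5 times fewer than 2233. MGE1 lost its call with all 8 acetylation lists (0.33, limma adjusted p = 0.29). All other named regions that could be tested kept direction and call in every alternative, and 8 of the 20 had no peak with a −log10 q of at least 5 in all lists.

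Upstream and downstream summit calls numbered 34 and 10 in genes with 1 peak in every list, and 8 and 6 in genes with no other gene within 1 kb. Without 1 list they numbered 67 to 321 upstream and 40 to 124 downstream, and AT4G38780 lost its call without H4K8ac replicate 2 (limma adjusted p = 0.055). With a replicate block there were 71 upstream and 38 downstream summit calls, 0 wider and 0 narrower peaks, and 2190 and 3458 relative height calls for H4K5ac and H4K8ac. Width calls were 0 and 0 without any 1 list too, with 877 to 1836 wider and 1162 to 2692 narrower genes at an unadjusted limma p under 0.05, so the width calls rest on all 4 lists. The difference of median summits stayed between -47.5 and -51.75 bp and that of median widths between -22 and -23 bp, or -103.5 bp with 9833 peaks per list. The cause of these changes was not tested unless stated. With 2 lists per mark no value per list can pass a threshold, regions absent from a list may lie just below the authors' q, and the fold scale of each antibody is not known.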
